A study of Caenorhabditis elegans with 6 samples.

Results

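The secretory pathway machinery is the set of protein complexes that bring new proteins into the endoplasmic reticulum (ER) and carry them through the Golgi to the cell surface. Its genes were chosen by symbol, as subunits of the signal recognition particle, translocon, signal peptidase, oligosaccharyltransferase, COPII and COPI coats, p24 cargo receptors, Golgi tethers and exocyst. The rule found 59 genes, measured by 84 probe sets, among 17118 genes named alone by at least 1 probe set. They were 16 genes of ER translocation, 8 of COPII, 7 of COPI, 5 p24 genes, 16 of Golgi tethers, 6 of the exocyst and 1 SNARE gene. The symbol rule used no measured value, although it was set with earlier results of these data known.

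The animals were Caenorhabditis elegans of the wild-type strain N2, hermaphrodite cultures of the Bristol variety, hatched without food, arrested as L1 larvae, then grown at 20 °C on DA837 bacteria with no other treatment. The stages compared each had 3 arrays of whole animals, with 200 pooled larvae per array, after a further sample of each stage was set aside for RNA quality. They were L3 larvae that were active at 32 hours after feeding, and L3-lethargus larvae, which neither moved nor fed, at 37 hours. The labels give a mean RNA yield per pool of 29.1 ± 15.9 ng in L3 and 19.7 ± 3.5 ng in lethargus (SD), and its part in the values below was not tested. Lethargus is the sleep-like pause of the molt, so age, molt phase and behaviour differed together and cannot be told apart. The label protocols name separate pools but no separate cultures or days, and the p-values therefore rest on pool-to-pool spread, which may be technical. In whole animals fewer cells of a type and less RNA per cell cannot be told apart.

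Secreted and membrane proteins enter the ER through a channel, the translocon, as they are made, and there lose their signal peptide and gain sugars. COPII coats bud vesicles from the ER, COPI coats return escaped proteins, tethers capture vesicles at the Golgi, and the exocyst tethers vesicles at the plasma membrane. In nematode larvae the epidermis uses this route to secrete collagens and other matrix proteins, and it builds a new cuticle at each molt.

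The arrays had median log2 levels between 7.09 and 7.19 and no pair held identical values. Among the L3 arrays replicate 3 lay nearest to lethargus, at 0.82 on a first principal component that held 50.1% of the variance, against -47.7 and -40.9. The lethargus arrays lay between 19.5 and 39.1 on it. All 27 measured markers of epidermis, intestine, body wall muscle, pharynx, germline and neurons had means above 5.48, the highest mean of the 24 Bacillus subtilis control probe sets. The summed level of the 5 epidermis markers was 13.89 to 14.34 in L3 and 13.17 to 13.43 in lethargus, on the log2 scale. The sum is set mostly by the brightest genes, and the 5 did not move one way. rol-6, a cuticle collagen, fell by 1.05 (SE 0.18, limma adjusted p 0.0488), a call that ended without any 1 array other than L3 replicate 3 (adjusted p 0.111 to 0.234) and with the replicate number as a block (adjusted p 0.186). The other 4 were not called: the collagen gene dpy-7 had a change of -1.12, lin-26 of -0.72, elt-1 of 0.45 and elt-3 of 0.41. Values of rol-6 and dpy-7 were lower in lethargus without overlap between the stages, and those of elt-1 were higher without overlap. The stages overlapped in lin-26 and elt-3. The part of the epidermal markers in the values below was not tested.

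No gene of the machinery passed the test between the stages. By limma, 0 of 59 genes were called higher and 0 lower in lethargus at an adjusted p of 0.05 or less, where 0.783% and 0.251% of all genes were called. At an unadjusted p under 0.05, 1 gene (tmed-13, below the highest control on all 6 arrays) was higher and 3 were lower. These were 1.69% and 5.08%, against 5.74% and 5.06% of all genes. Without L3 replicate 3 the counts were also 0 and 0, although 2.66% of all genes were then called higher and 2.59% lower. The sole setting that called a member averaged all probe sets of each gene: trpp-12 was then lower, with an adjusted p of 0.0479.

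The intervals bound the size of the changes. The log2 changes, lethargus minus L3, ran from -0.65 for trpp-12 to 0.22 for sec-24.2 over the 58 genes with a mean above the highest control mean. The remaining gene, tmed-13, was below the highest control on every array, and its fitted change of 0.52 is not a measured size. Of the changes, 0 of 59 exceeded 1, which is a 2-fold change, in either direction, where 3.5% of all genes did. The 95% interval lay within a 2-fold change for 57 genes (96.6%), against 88.4% of all genes. The exceptions were trpp-12 and cogc-6, whose intervals reached -1.01 and -1.10. The interval lay within 0.5 on the log2 scale for 29 of 59, and for 7726 of all 17118 genes. The median size of a change was 0.15 for the 59 genes and 0.13 for all genes, so typical changes were not smaller. SEs ran from 0.11 to 0.22 with a median of 0.14, against a median of 0.16 over all genes. At the members' median a change of 0.85, or 1.80-fold, would have been needed for a call. The change needed was 0.66 at the lowest SE of a member and 1.32 at the highest.

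**Figure D1:**
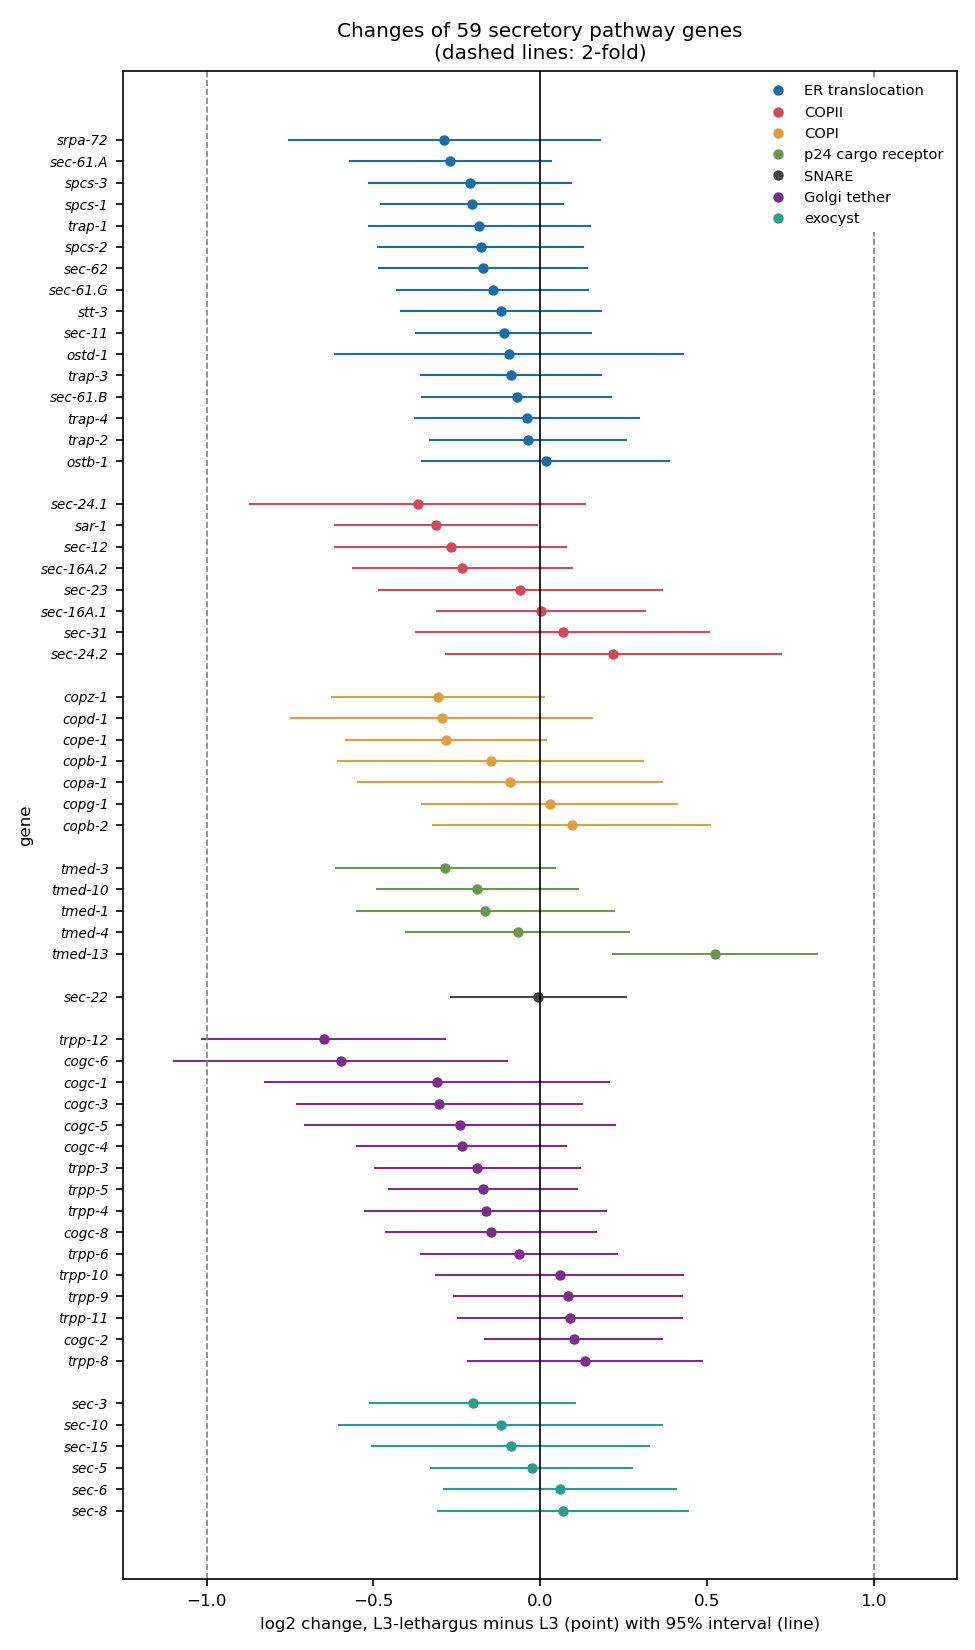
Log2 change from L3 to L3-lethargus of each of the 59 genes (points) with its 95% interval from limma (lines), grouped by machinery, with dashed lines at a 2-fold change. Of the 59 points, 45 lie left of 0, and the intervals of trpp-12 and cogc-6 alone cross a dashed line.

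Most of the small differences had the same sign. The change was negative for 45 of 59 genes (76.3%) and the median was -0.14, whereas 45.6% of all genes had a negative change and their median was 0.02. Among the 11089 genes with a mean above the highest control mean, 47.6% were negative with a median of 0.01. The negative count was 45 after a second quantile normalization and 46 with the arrays centred on a common median. Without L3 replicate 1 the median was -0.09, with 41 genes negative. The genes share 6 arrays, so they are not independent evidence of a shift.

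The stages were not separated by these small differences on every array. With each gene centred on its own mean over the 6 arrays, the median deviation of the 59 genes was 0.13 and 0.10 on L3 replicates 1 and 2, but -0.03 on L3 replicate 3. It was -0.10 and -0.12 on lethargus replicates 1 and 2, and 0.01 on lethargus replicate 3. The medians of the stages overlapped, with lethargus replicate 3 above L3 replicate 3. On L3 replicate 3, 48 of 59 genes (81.4%) were below the mean of L3 replicates 1 and 2, by a median of -0.16 on the log2 scale, against 51.4% and -0.01 over all genes. The median of lethargus against L3 replicates 1 and 2 was -0.18. The highest value of a gene fell on L3 replicate 1 for 22 genes and on lethargus replicate 3 for 15.

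**Figure D2:**
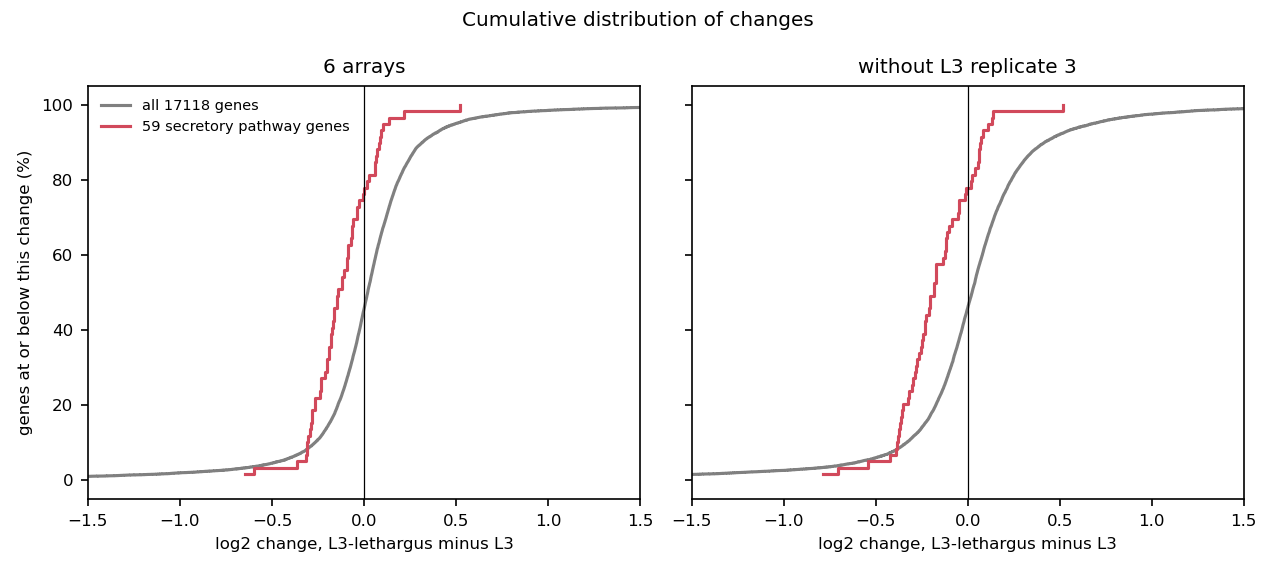
Share of genes (%) at or below each log2 change, for the 59 secretory pathway genes (red) and all 17118 genes (grey), on 6 arrays and without L3 replicate 3. The red curve crosses 0 at 76.3% on 6 arrays, where the grey curve is at 45.6%.

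Entry into the ER came first in the pathway and had the most uniform signs, with 15 of 16 genes negative, a median of -0.13 and a range from -0.29 to 0.02. All 16 intervals lay within a 2-fold change, and adjusted p-values from limma were 0.562 or more. The signal recognition particle, which brings ribosomes making secreted proteins to the ER, was represented by srpa-72, a subunit that binds the particle's RNA. Its levels were 8.39, 8.87 and 8.40 in L3 replicates 1 to 3 and 8.13, 8.60 and 8.09 in lethargus. The stages overlapped, since lethargus replicate 2 was above L3 replicates 1 and 3, and the change was -0.29 (SE 0.20, adjusted p 0.775).

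The translocon gene sec-61.A encodes the pore itself. It read 12.84, 12.68 and 12.60 in L3 and 12.38, 12.56 and 12.37 in lethargus, a change of -0.27 (SE 0.13) with an adjusted p of 0.562. All lethargus arrays lay below all L3 arrays, by a margin of a few hundredths between the nearest pair. The small subunit genes sec-61.B and sec-61.G and the partner gene sec-62 had -0.07, -0.14 and -0.17, each with overlapping stages. The 4 genes of the translocon-associated complex, which sits beside the channel, had changes from -0.18 to -0.04. Among these trap-1 had 12.38, 12.21 and 12.01 in L3 against 12.11, 11.90 and 12.04 in lethargus, and trap-3 had 13.51, 13.53 and 13.45 against 13.44, 13.31 and 13.48. The L3 and lethargus values of both genes overlapped, at adjusted p-values of 0.816 and 0.927.

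Signal peptidase cuts the signal peptide from the entering chain, and all 4 of its subunit genes had negative changes, from -0.21 to -0.11. spcs-1 separated the stages, with 11.51, 11.58 and 11.42 in L3 and 11.32, 11.23 and 11.35 in lethargus, although the change was -0.20 (SE 0.12, adjusted p 0.678). Oligosaccharyltransferase adds the N-linked sugar chain. Its catalytic subunit gene stt-3 had 11.83, 11.76 and 11.64 in L3 and 11.66, 11.49 and 11.74 in lethargus, a change of -0.12 with a 95% interval from -0.42 to 0.18. ostb-1, a further subunit gene, was the single positive member of the translocation group, at 12.22, 11.94 and 12.22 against 12.35, 12.15 and 11.92, a change of 0.02. Neither gene separated the stages. dad-1 and ribo-1, for further subunits of this enzyme, lie outside the symbol rule and are counted among the partners below. Their changes were positive, at 0.16 and 0.04, with overlapping stages.

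**Figure D3:**
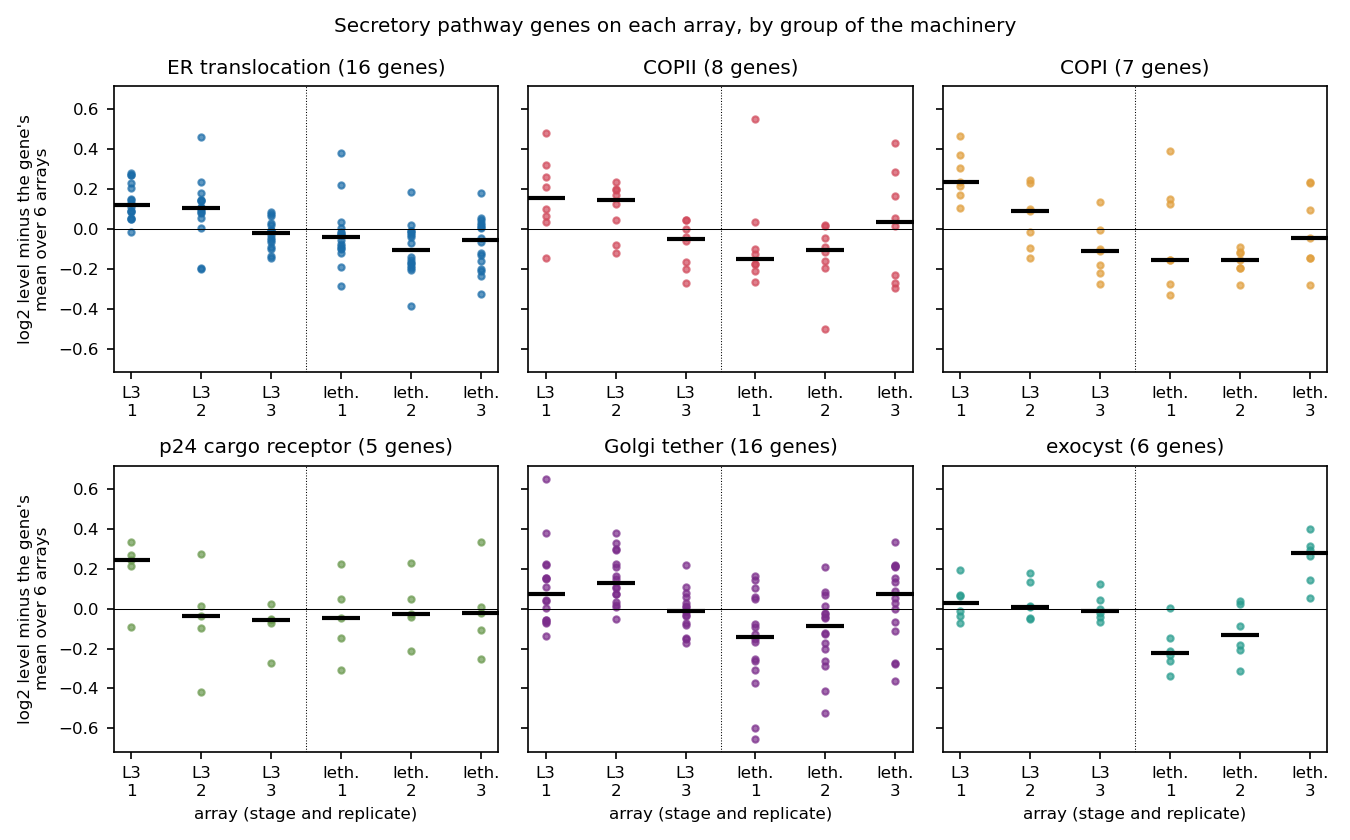
Log2 level of each gene minus its mean over the 6 arrays (points) by stage and replicate, in panels for 6 groups of the machinery, with the median as a black bar. The sole SNARE gene is not drawn, and replicates are in label order, whose meaning is not known. The exocyst medians are -0.22, -0.13 and 0.28 on lethargus replicates 1 to 3 and between -0.01 and 0.03 on the L3 arrays.

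COPII members split, with 5 of 8 negative and a median of -0.15. sar-1 encodes the GTPase that starts the coat, and it read 11.54, 11.45 and 11.32 in L3 and 11.15, 11.23 and 10.98 in lethargus. The stages did not overlap, and the change of -0.31 (SE 0.13) had an unadjusted p of 0.0447 and an adjusted p of 0.451 by limma. A second, dimmer probe set of sar-1 had a change of 0.01 with overlapping stages. sec-12, whose product loads SAR-1 with GTP, had -0.27 (adjusted p 0.655).

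The inner coat pairs SEC-23 with a SEC-24 protein, which binds cargo. sec-23 read 12.16, 12.26 and 11.87 in L3 and 11.89, 11.87 and 12.35 in lethargus, so the highest of its 6 values was in lethargus, and the change was -0.06 (interval -0.48 to 0.36). The cargo-binding paralogues had opposite signs. sec-24.1 had 10.19, 9.94 and 9.54 against 9.61, 9.21 and 9.77, a change of -0.37 (SE 0.21, adjusted p 0.693), while sec-24.2 had 9.97, 9.79 and 9.64 against 10.46, 9.92 and 9.68, a change of 0.22 (SE 0.21, adjusted p 0.880). Both overlapped between stages, and the difference between the paralogues was not tested. The scaffold genes sec-16A.1 and sec-16A.2 had 0.00 and -0.23, and sec-31 of the outer coat had 0.07.

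Of the 7 coatomer genes of COPI, 5 had negative changes, with a median of -0.15 and a range from -0.31 to 0.09. copz-1, for the small zeta subunit, had 11.06, 10.79 and 10.68 in L3 and 10.53, 10.53 and 10.54 in lethargus. cope-1, for the epsilon subunit, had 11.31, 10.99 and 11.14 against 10.85, 10.89 and 10.86. In both genes every lethargus array was below every L3 array, and the lethargus arrays lay close together, with SDs of 0.007 and 0.02 (n = 3). Their changes of -0.31 (SE 0.14) and -0.28 (SE 0.13) had adjusted p-values of 0.501 and 0.521. copa-1, for the large alpha subunit, had 11.46, 11.54 and 11.02 against 11.02, 11.20 and 11.52, a change of -0.09 with full overlap of the stages. copb-2, for the other large subunit of the outer cage, had 10.70, 10.45 and 10.50 against 10.99, 10.40 and 10.55, with its highest and lowest values both in lethargus. On L3 replicate 3 all 7 coatomer genes were below the mean of replicates 1 and 2, by a median of -0.25, and in lethargus the median against those arrays was -0.29.

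The p24 genes encode cargo receptors that cycle between ER and Golgi. Of 5 measured, 4 had negative changes. tmed-3 had 11.60, 11.66 and 11.33 in L3 and 11.24, 11.36 and 11.13 in lethargus, a change of -0.28 (SE 0.14, adjusted p 0.579) with overlap between L3 replicate 3 and lethargus replicate 2. tmed-10 had 11.17, 10.95 and 10.95 against 10.88, 10.72 and 10.91, with no overlap and a change of -0.19 (adjusted p 0.764). tmed-4 had 11.68, 11.31 and 11.34 against 11.46, 11.37 and 11.30, a change of -0.07. tmed-13 read 3.71, 3.39 and 3.53 in L3 and 4.03, 4.04 and 4.14 in lethargus. All 6 values lay below the highest Bacillus subtilis control of their array, so neither a fold nor a direction is drawn for tmed-13, although its values did not overlap between stages (limma adjusted p 0.155). The SNARE gene sec-22, which acts in fusion between ER and Golgi, had 10.12, 10.11 and 10.08 against 10.03, 10.18 and 10.09, a change of -0.0050 with an interval from -0.27 to 0.26.

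Golgi tethers held the lowest changes of the whole set. The 16 genes fall into the conserved oligomeric Golgi (COG) complex, which tethers vesicles that return within the Golgi, and the TRAPP complex, which activates a Rab GTPase and takes part in tethering. trpp-12 encodes a TRAPP subunit whose human counterpart belongs to the form of the complex linked to autophagy. It had 10.56, 10.57 and 10.40 in L3 and 9.59, 9.92 and 10.07 in lethargus. All lethargus arrays were lower, and the change of -0.65 (SE 0.16, interval -1.01 to -0.28) had an unadjusted p of 0.00376 and an adjusted p of 0.140. A second probe set of trpp-12, also not marked as able to match related genes, had 8.64, 8.39 and 8.10 in L3 and 7.76, 7.51 and 6.94 in lethargus. Again no values overlapped, with a change of -0.97 (SE 0.24, adjusted p 0.148). The mean of both probe sets gave -0.81 and an adjusted p of 0.0479, and the other settings tried gave trpp-12 adjusted p-values from 0.0656 to 0.472.

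**Figure D4:**
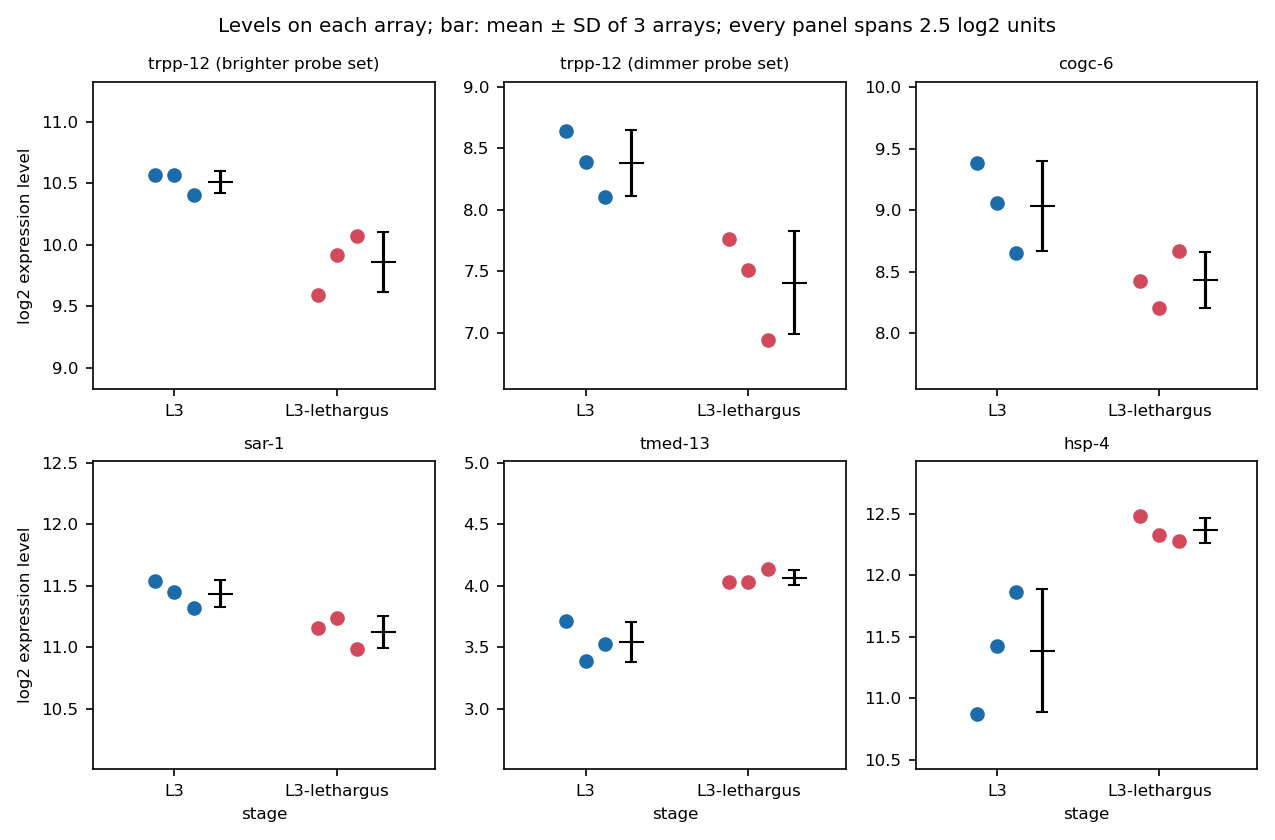
Log2 levels on each array (points) with mean ± SD of 3 arrays a stage (black) for both probe sets of trpp-12 and for cogc-6, sar-1, tmed-13 and hsp-4, all panels spanning 2.5 log2 units. The stages do not overlap except in cogc-6, where L3 replicate 3 lies at 8.65 and lethargus replicate 3 at 8.67.

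The other TRAPP genes had changes from -0.19 to 0.13, with 4 of these 8 positive. trpp-3 had 10.91, 10.88 and 10.91 in L3 and 10.73, 10.88 and 10.53 in lethargus, and trpp-5 had 10.00, 10.17 and 9.98 against 9.83, 9.84 and 9.96. Neither gene overlapped between stages, by very small margins, and the adjusted p-values were 0.777 and 0.780. trpp-8 had the largest positive change of the tethers, with 8.95, 9.09 and 9.01 against 8.99, 9.04 and 9.42, and its highest value stood on lethargus replicate 3.

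In the COG complex 6 of 7 genes had negative changes. The lowest was that of cogc-6, at 9.38, 9.06 and 8.65 in L3 and 8.43, 8.21 and 8.67 in lethargus, a change of -0.60 (SE 0.21, unadjusted p 0.0248, adjusted p 0.352). L3 replicate 3 of cogc-6 lay among the lethargus values, and without that array the change was -0.79 with an adjusted p of 0.0664. cogc-2 was the exception, with 10.22, 10.24 and 10.26 in L3 and 10.34, 10.26 and 10.42 in lethargus. Its stages did not overlap and the change was 0.10 (SE 0.11, adjusted p 0.903). The dimmer probe sets of cogc-2 had the opposite sign, at -0.26 and -0.37. Within lethargus, replicate 3 was the highest of the 3 arrays for the brightest probe sets of all 7 COG genes, against 41.6% of all genes. It lay a median of 0.35 above the other lethargus arrays. Dimmer probe sets were mixed: both of cogc-2 were lowest on lethargus replicate 3, whereas that of cogc-1 was highest there.

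The exocyst had a median change of -0.06, and all 6 intervals lay within a 2-fold change. sec-3, whose product helps place the complex at the membrane, had 8.97, 8.91 and 8.76 in L3 and 8.63, 8.57 and 8.83 in lethargus, a change of -0.20 (SE 0.13, adjusted p 0.741). sec-5 had 9.61, 9.63 and 9.67 against 9.63, 9.44 and 9.77, a change of -0.02, and sec-8 had 8.44, 8.52 and 8.47 against 8.28, 8.54 and 8.82, a change of 0.07. In each of these genes the lethargus values fell on both sides of at least 1 L3 value.

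The exocyst genes spread further among the lethargus arrays than among the L3 arrays, which was not tested. The SD was larger in lethargus than in L3 for all 6 genes, with medians of 0.26 and 0.07 (n = 3 arrays each). Over all genes the lethargus SD was the larger in 52.9%, with medians of 0.19 and 0.17. The exocyst median was thus above that of all genes in lethargus and below it in L3. The genes share the same 3 arrays of a stage, so they are not independent observations of spread. The Golgi tethers had the same pattern, with the larger SD in lethargus for 14 of 16 genes (87.5%) and medians of 0.21 and 0.087. The lethargus SD was also the larger in 5 of 8 COPII genes (62.5%). This held for 7 of 16 ER translocation genes, 2 of 7 COPI genes and 0 of 5 p24 genes. Lethargus replicate 3 was the highest of the lethargus arrays in 6 of 6 exocyst genes and the highest of all 6 arrays in 5. The lowest value was on lethargus replicate 1 or 2 in 6. These last 2 counts were 15 and 39 for the 59 members, and 4155 and 6093 for all 17118 genes. Lethargus replicate 3 of the exocyst genes lay a median of 0.38 above the other lethargus arrays, against 0.12 for all 59 genes and 0.05 for all genes. For the Golgi tethers and COPII this median was 0.23 and 0.22. Among the tethers it was 0.35 for the 7 COG genes and 0.13 for the 9 TRAPP genes. Of the TRAPP genes, 5 had their highest lethargus value on replicate 3. Over all genes, lethargus replicate 3 was the highest lethargus array in 41.6%. These exocyst counts cover the brightest probe sets of genes that the symbol rule found. The exocyst genes exoc-7 and exoc-8 are listed among the partners below. They read 10.40, 9.83 and 10.21, and 8.76, 8.97 and 9.29, on lethargus replicates 1 to 3. Both were highest on L3 replicate 1, at 10.46 and 9.33. A dimmer probe set of sec-6 read 7.31, 7.54 and 6.75 in lethargus.

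Counted over the whole machinery, all lethargus arrays lay below all L3 arrays in 9 of 59 genes (15.3%), where 6.44% of all genes did so. These were cope-1, copz-1, sar-1, sec-61.A, spcs-1, tmed-10, trpp-3, trpp-5 and trpp-12. All lethargus arrays lay above in 2 genes (3.39%), cogc-2 and tmed-13, against 8.18% of all genes. On every array tmed-13 was below the highest control. For 7 of the 9 the interval of the change included 0, and those of sar-1 and trpp-12 did not.

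Several probe sets measured 20 of the genes, and 0 of the 84 probe sets were called. The sign of the change was shared by all probe sets in 13 genes and mixed in 7. The span between probe sets of a gene had a median of 0.21 and reached 0.58 in copb-2, at 0.09 and -0.49. The 4 probe sets of cogc-3 and the 3 of cogc-4 were negative throughout, from -0.30 to -0.26 and from -0.42 to -0.24. The median size of the change between stages was 0.15 over the 59 genes, on the same scale.

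**Figure D5:**
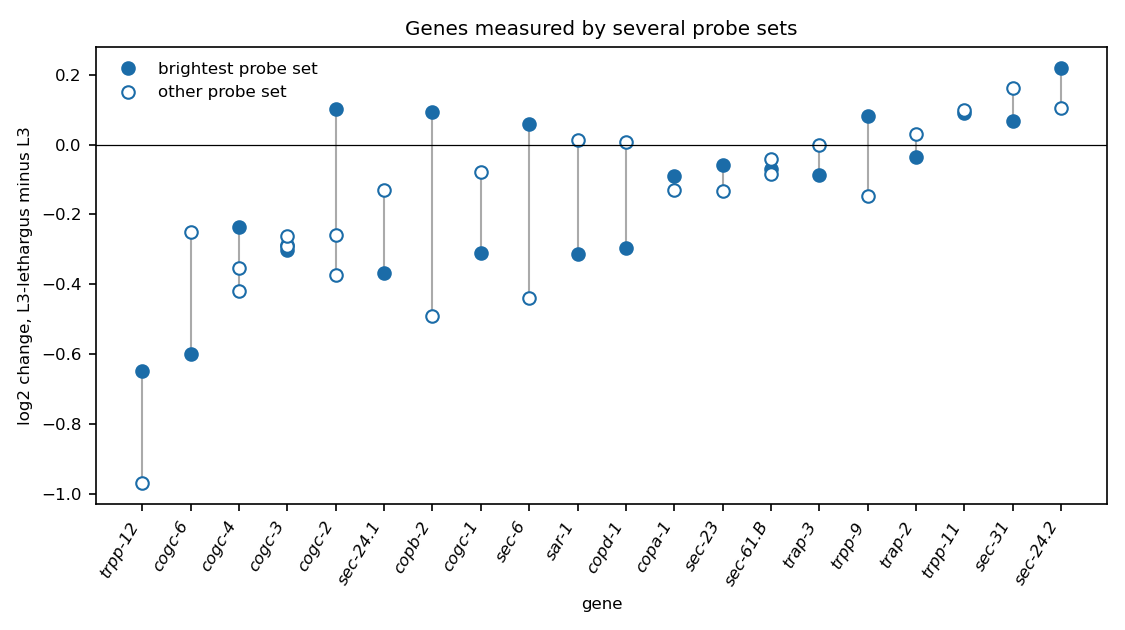
Log2 change from L3 to L3-lethargus of every probe set of the 20 genes with several, with the brightest probe set filled and the others open. Both probe sets of trpp-12 lie at or below -0.65, while those of copb-2 span 0.09 to -0.49.

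Partners of the machinery, from lists of general knowledge, were likewise not called: 0 of 40 measured genes rose and 0 fell by limma, with 2 higher and 1 lower at an unadjusted p under 0.05, or 5% and 2.5%. Over all genes 0.783% and 0.251% were called, and 5.74% and 5.06% had an unadjusted p under 0.05. With 40 genes such counts are too small to tell the partners from the background. The 14 measured genes of ER folding and glycosylation had a median of 0.01, the 4 regulators of ER stress 0.05, and the 22 vesicle GTPases, SNAREs and adaptors -0.06. hsp-4, one of a pair of worm genes for the ER chaperone BiP and the one induced by ER stress, read 10.87, 11.43 and 11.87 in L3 and 12.48, 12.33 and 12.28 in lethargus. The stages did not overlap, and the change was 0.98 (SE 0.24, interval 0.41 to 1.54) with an adjusted p of 0.153. L3 replicate 3 was the L3 array nearest to lethargus. Without it hsp-4 was called higher, with a change of 1.22 and an adjusted p of 0.0136. Calls over all genes also rose without that array, to 2.66% higher and 2.59% lower. Over all settings tried the change of hsp-4 ran from 0.72 to 1.22. Its limma adjusted p ran from 0.0136 to 0.452. The probe set of hsp-4 is marked as able to match related genes. Its paralogue hsp-3 had 13.03, 13.07 and 13.13 against 13.06, 13.05 and 13.09, a change of -0.01 with an interval from -0.27 to 0.25.

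The regulators of the ER stress response were not called. ire-1, the sensor kinase, had 9.09, 9.01 and 9.21 in L3 and 9.17, 8.67 and 9.13 in lethargus. xbp-1, the transcription factor gene whose RNA IRE-1 splices, had 12.85, 12.84 and 13.04 against 13.30, 13.19 and 12.96, and its change of 0.24 had an adjusted p of 0.690. Both overlapped between stages, and the arrays do not resolve spliced from unspliced xbp-1 in the values used here.

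Folding enzymes and the first Rab of the pathway were not called either. pdi-2, a subunit of the collagen prolyl hydroxylase, had 13.34, 13.19 and 13.19 in L3 and 13.16, 13.01 and 12.91 in lethargus, without overlap, and a change of -0.21 (adjusted p 0.700). A dimmer probe set of pdi-2 had 0.07. crt-1, for the chaperone calreticulin, had 14.05, 14.03 and 14.08 against 14.24, 14.14 and 13.87, and rab-1, the GTPase of ER to Golgi transport, had 10.80, 10.58 and 10.50 against 10.45, 10.46 and 10.50, with changes of 0.03 and -0.16. ero-1 and rab-6.2, chosen after their values were seen because of unadjusted p-values under 0.05, had changes of 0.33 and -0.58 with adjusted p-values of 0.415 and 0.451.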

How the data were processed

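Per the submitters' processing notes, the authors made the deposited log2 values with RMA (version not given in the sources used here) from amplified cDNA on the Affymetrix C. elegans Genome Array. The table held 22625 probe sets, and 77 controls were left out. The array annotation named 1 gene for 20766 probe sets, and all 59 members matched the RefSeq table of WBcel235 by gene identifier. The brightest probe set stood for a gene, and 31 of the 59 were marked _s_at or _x_at. Members and lists were chosen with earlier results of these data known. Stages were compared with limma 3.58.1 in R 4.3.3 (group as the only term, two-sided, Benjamini-Hochberg over 22548 probe sets), tested on simulated data. The R/maanova fit that the design text names was not run. The rule for named genes took each group's extremes and brightest gene, genes whose stages did not overlap, and sar-1, sec-23, copa-1, stt-3, trap-1 and sec-5. cogc-6, cogc-3, cogc-4, sec-12, sec-16A.1, sec-16A.2, sec-31, sec-61.B, sec-61.G and sec-62 were chosen after their values were seen. So were cogc-1, sec-6, exoc-7, exoc-8, dad-1 and ribo-1. Of 45 partner genes asked for, 40 had a probe set of their own symbol. The alternatives were normalization, centring, a filter on dim probe sets, arrays left out, a block, weights, a variance trend and other choices of probe set.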

Additional observations from a re-analysis of the deposited data

How the results depend on the processing

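The member counts of 0 higher and 0 lower held under all settings tried except 1, the mean of all probe sets of a gene, which called 1 member lower (trpp-12). Over all probe sets the calls of 170 higher and 48 lower became 262 and 231 with array weights and 185 and 77 with a variance trend. With an array left out they ran from 75 to 573 higher and from 0 to 563 lower, the high ends without L3 replicate 3. Whether replicate numbers pair the samples cannot be settled from 3 arrays a stage. Deviations from the stage mean correlated at 0.26, -0.24 and -0.29 between same-numbered arrays, and only lethargus replicate 1 correlated best with its own number. The fit with the replicate block called 56 higher and 3 lower, and 0 members, and it ended the call of the epidermis marker rol-6 (adjusted p 0.186). Among counts added after seeing the data, the number of members with a negative change and of intervals within a 2-fold change was 25 and 35 of 37 genes left without marked probe sets, where fewer genes were counted, and ran from 41 to 49 and from 56 to 58 under the other settings. Signs turned, all without a call, for sec-22 with array weights (0.0069), copb-2 (-0.20) and cogc-2 (-0.18) with the mean of all probe sets, and cogc-2 (-0.37) and pdi-2 (0.074) without marked probe sets. With an array left out they turned for 12 genes: tmed-4 (-0.13 to 0.051), sec-22 (-0.043 to 0.028), ostb-1 (-0.089 to 0.13), sec-23 (-0.22 to 0.023), copa-1 (-0.25 to 0.023), hsp-3 (-0.033 to 0.016), sec-24.2 (-9.4e-06 to 0.39), copb-2 (-0.076 to 0.22), crt-1 (-0.052 to 0.14), sec-5 (-0.10 to 0.060), ire-1 (-0.20 to 0.046) and sec-8 (-0.070 to 0.20). The cause was not tested.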

Other observations

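Some members lie close together in the genome, by the order of protein-coding genes in the RefSeq annotation of WBcel235. sec-61.B, for the beta subunit of the translocon, and trap-3, for a translocon-associated subunit, are direct neighbours with 0 coding genes between them, and their changes were -0.07 and -0.09. trap-1 and cogc-3 have 1 coding gene between them, and copa-1 and trap-1 have 5. Their changes were -0.18, -0.30 and -0.09. All 3 genes were lower on L3 replicate 3 than the mean of L3 replicates 1 and 2, with differences of -0.29, -0.22 and -0.48 on the log2 scale. The same held for 48 of all 59 members (81.4%), so it is not particular to these neighbours. A link with gene position was not tested.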
